A study of Mus musculus with 6 samples.

Results

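The genes by which cells display peptides on major histocompatibility complex (MHC) molecules were examined in RNA sequencing of mouse bone marrow LSK cells, the lineage-negative, Sca-1-positive, c-Kit-positive fraction that holds haematopoietic stem cells and the earliest progenitors. The 10 genes were chosen by name out of 24063 gene symbols in the count files, for their place in the pathway. They were chosen with earlier results of these data known. For class I they were the heavy chains H2-K1 and H2-D1, the light chain B2m, the peptide transporter subunits Tap1 and Tap2 and the transactivator Nlrc5. For class II they were the alpha chain H2-Aa, the beta chain H2-Ab1, the invariant chain Cd74 and the transactivator Ciita. The study compared 3 Asxl2-/- libraries with 3 control libraries, described as biological replicates, to ask what loss of the chromatin regulator Asxl2 changes in these cells. All mice were C57BL/6, carried Mx1-cre and had received pIpC weeks before the cells were taken. pIpC is a double-stranded RNA mimic that induces interferon and thereby the Mx1 promoter, so both groups had earlier been exposed to an interferon inducer. The Asxl2-/- mice carried in addition Asxl2fl/fl, in which Cre removes exon 11 of Asxl2, and the controls had no floxed Asxl2. Mx1-cre is active in haematopoietic cells but also in other interferon-responsive tissues such as liver, and the age of these mice was not given in the sources used here.

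MHC class I molecules consist of a heavy chain and B2m, are made by nearly all nucleated cells, and carry peptides that the proteasome cuts in the cytosol and the TAP transporter moves into the endoplasmic reticulum. Class II molecules are alpha and beta chain pairs found mainly on dendritic cells, macrophages and B cells, where the invariant chain occupies the peptide groove until the complex reaches the endosome. Transcription of both classes depends on a shared promoter enhanceosome of regulatory factor X, CREB-family and NF-Y proteins, to which Nlrc5 is recruited at class I genes and Ciita at class II genes, and both transactivators are induced by interferon gamma. Haematopoietic stem and progenitor cells are known to display class I and, at lower levels, class II molecules.

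The promoters are shown first because both classes read the same kinds of box. RefSeq promoter entries (GRCm38.p6, the mm10 build of the files) matched 5 of the 10 genes by symbol, namely H2-K1, H2-D1, B2m, Tap1 and H2-Aa, and no entry was matched for the other members. The last 150 bases before the annotated start are given 5′ to 3′ for the 4 genes in which TGACG, the core of a CREB-type X2 box, was followed on the same strand by ATTGG, the inverted CCAAT of a Y box, after 15 to 25 bases. Capitals mark these letters.
H2-K1, chr17:34000334-34000483, minus strand: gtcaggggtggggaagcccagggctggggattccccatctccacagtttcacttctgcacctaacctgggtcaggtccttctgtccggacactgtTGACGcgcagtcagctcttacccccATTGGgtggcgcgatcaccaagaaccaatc
H2-D1, chr17:35262944-35263093, plus strand: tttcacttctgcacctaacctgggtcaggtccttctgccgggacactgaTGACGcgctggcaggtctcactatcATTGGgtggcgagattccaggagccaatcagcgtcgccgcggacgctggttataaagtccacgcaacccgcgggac
B2m, chr2:122147537-122147686, plus strand: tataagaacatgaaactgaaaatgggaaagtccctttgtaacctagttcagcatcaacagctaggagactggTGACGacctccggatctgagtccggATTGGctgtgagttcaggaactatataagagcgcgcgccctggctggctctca
H2-Aa, chr17:34287824-34287973, minus strand: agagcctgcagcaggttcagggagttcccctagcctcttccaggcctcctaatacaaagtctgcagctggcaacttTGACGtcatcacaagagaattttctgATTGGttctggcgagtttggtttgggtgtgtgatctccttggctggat
The spacing between the boxes was 20 bases in H2-K1, H2-D1 and B2m and 21 bases in H2-Aa. TGACG began at -55 in H2-K1, -101 in H2-D1, -78 in B2m and -74 in H2-Aa, counted from the annotated start, which for H2-Aa lay 52 bases before the transcript start in the count files. Tap1 held TGACG but not the pair. Over 32817 promoter windows of 250 bases, 125 (0.381%) held the pair on either strand, while TGACG alone was in 17.75% and ATTGG alone in 33.83%. The NF-kappaB-type word GGGGATTCC was in H2-K1 and H2-D1 and in 0.213% of all windows, and the interferon-response word AANNGAAA was in H2-K1, H2-D1, B2m and H2-Aa and in 21.3% of all windows, both searched on both strands. The words were chosen after the sequences were seen, and a match is a description of letters and not of binding.

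The libraries held totals of 25528540 to 55032075 counts. Asxl2-/- replicates 1 and 3 and control replicate 2 were deposited as counts per transcript, and the other 3 as counts per exon. Exon counts were summed per transcript, so the kind of file was a term in the model. The totals were 25528540 to 29136012 in the gene-count files and 53147729 to 55032075 in the exon-count files. Summing exons counts a read on 2 exons more than once, so these totals are not numbers of reads and do not compare depth. In the 3 exon-count libraries exon 11 of Asxl2 held 28 reads in Asxl2-/- replicate 2 against 457 and 492 in control replicates 1 and 3. Over the whole gene Asxl2 lay at 125, 90.2 and 148 CPM (counts scaled to 1 common library total, so that libraries of unequal depth can be compared) in Asxl2-/- replicates 1, 2 and 3 and at 85.03, 123 and 86.6 CPM in the controls, with exon 11 counted apart in none of the gene-count files. Xist was at 1071 to 2350 CPM in the Asxl2-/- libraries and at 13.0 to 61.3 CPM in the controls, while the Y-linked Ddx3y was at 83.0 to 101 CPM in the controls and at 0 to 0.0705 CPM in the Asxl2-/- libraries, so genotype and sex cannot be told apart in any comparison here. Control replicate 2 stood apart from the other 5 libraries in myeloid genes: its summed CPM over 13 monocyte and macrophage markers was 1591, against 258 to 497 in the others. Differences were tested with edgeR's quasi-likelihood test on 14145 genes with Benjamini-Hochberg adjustment at a threshold of 0.05, and all fold changes are Asxl2-/- over control.

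All 10 presentation genes had a log2 fold change below 0, and none passed the threshold in either direction. Across all genes tested, 0.304% were called lowered and 2.34% were called in either direction. At an unadjusted p below 0.05, 5 of the 10 were lower and none higher, namely Tap2, H2-Aa, H2-Ab1, Cd74 and Ciita, against 12.6% of all genes lower at that level. In 6 of the 10 every Asxl2-/- library was below every control, as in 9.37% of all genes. The 4 class II genes had a median log2 fold change of -1.58 and the 6 class I genes a median of -0.26, beside 0.00 over all genes tested.

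**Figure D1:**
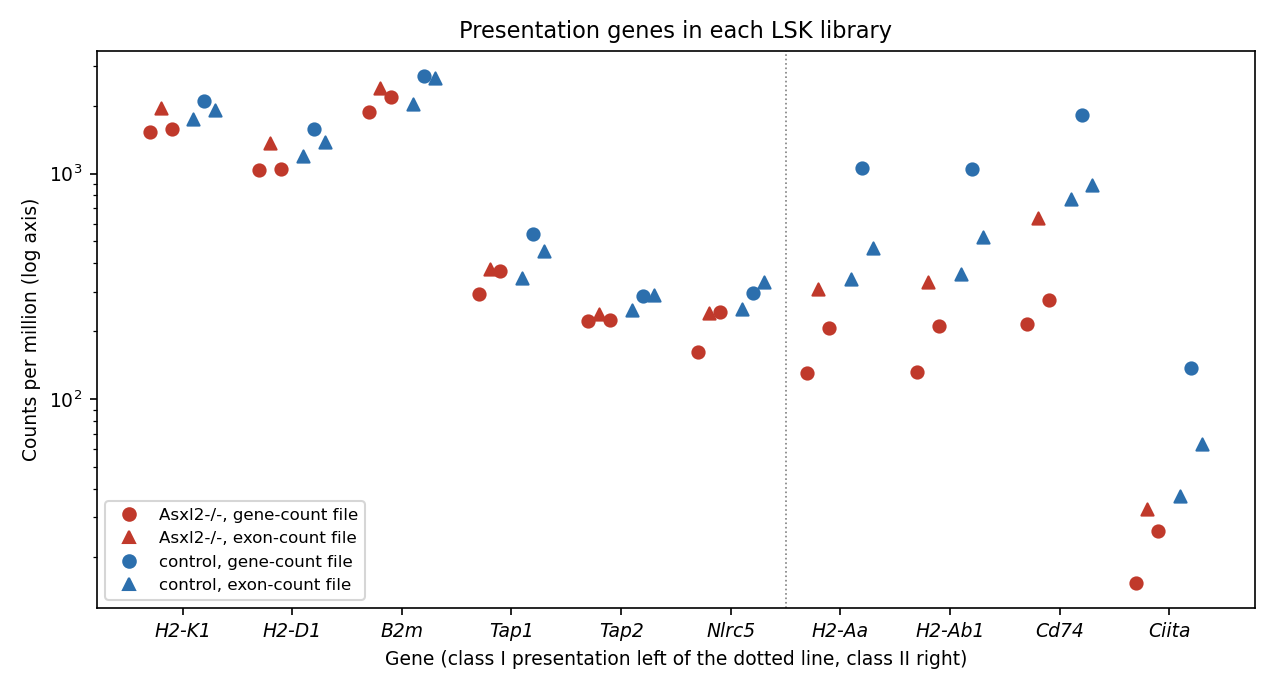
CPM on a log axis for the 10 presentation genes in each of the 6 LSK libraries, with Asxl2-/- in red and control in blue, circles for gene-count files and triangles for exon-count files. For H2-Aa, H2-Ab1, Cd74 and Ciita the 3 red points lie below the 3 blue points and control replicate 2 is the highest, while for H2-K1, H2-D1, B2m and Tap1 the groups overlap.

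The class II genes were examined first. H2-Aa, the alpha chain of the I-A molecule (chr17:34282751-34287771, 5 exons), lay at 131, 308 and 208 CPM in Asxl2-/- replicates 1, 2 and 3 and at 342, 1063 and 469 CPM in control replicates 1, 2 and 3. The groups did not overlap, but Asxl2-/- replicate 2 and control replicate 1 were near each other, and control replicate 2 was 3.11 times control replicate 1. The log2 fold change of H2-Aa was -1.52 ± 0.496 (SE, n = 3 per group), with a 95% interval of -2.73 to -0.31 and an edgeR adjusted p of 0.124.

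H2-Ab1, which encodes the partner beta chain (chr17:34263227-34269418, 6 exons), lay at 133, 330 and 211 CPM in the Asxl2-/- libraries and at 361, 1044 and 524 CPM in the controls, in replicate order. It had the same order of libraries as H2-Aa and no overlap between groups. Its log2 fold change was -1.51 ± 0.487, with an interval of -2.70 to -0.33 and an edgeR adjusted p of 0.122. The ratio of H2-Aa to H2-Ab1 counts was 0.894 to 1.02 in the 6 libraries, so the chains of the pair were held at nearly the same count in each library while both moved over a wide range.

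Cd74, the invariant chain that chaperones newly made class II molecules (chr18:60803849-60812652, 9 exons), lay at 216, 632 and 274 CPM in the Asxl2-/- libraries and at 770, 1825 and 887 CPM in the controls. Asxl2-/- replicate 2 was again the highest of its group and control replicate 2 the highest of all, and the groups did not overlap. The log2 fold change of Cd74 was -1.64 ± 0.521, with an interval of -2.91 to -0.37 and an edgeR adjusted p of 0.120. A 12-base stretch, 0.848% of its exon bases, is shared with the microRNA gene Mir5107.

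Ciita, the transactivator on which class II transcription depends (chr16:10480072-10527564, 19 exons), lay at 15.4, 32.6 and 26.1 CPM in the Asxl2-/- libraries and at 37.2, 138 and 63.7 CPM in the controls. It had the smallest p of the 10 genes and no overlap between groups, and control replicate 2 was 3.71 times control replicate 1. Its log2 fold change was -1.67 ± 0.498, with an interval of -2.88 to -0.46 and an edgeR adjusted p of 0.108. The ratio of H2-Aa to Ciita counts was 7.36 to 9.45 over the 6 libraries, with both groups spanning much of that range.

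The class II differences rested mainly on the gene-count files, and thus on control replicate 2, the only control among them. Within the gene-count files the control value was 6.43-fold higher for H2-Aa, 6.23-fold for H2-Ab1, 7.50-fold for Cd74 and 6.86-fold for Ciita. Within the exon-count files, where Asxl2-/- replicate 2 stood against control replicates 1 and 3, the controls were 1.30-fold, 1.32-fold, 1.31-fold and 1.49-fold higher, respectively. Without control replicate 2 the log2 fold changes were -0.39 for H2-Aa, -0.42 for H2-Ab1, -0.38 for Cd74 and -0.62 for Ciita, with edgeR adjusted p of 0.396 to 0.578. Without Asxl2-/- replicate 2 they were -2.65, -2.60, -2.90 and -2.73, and all 4 passed the threshold, with edgeR adjusted p of 0.0104, 0.0121, 0.00206 and 0.0171. The direction of all 4 was below 0 in each of these fits, and their size and call differed with the library left out. With kind of file in the model, leaving out control replicate 2 compares the groups only within the exon-count files. Leaving out Asxl2-/- replicate 2 compares them only within the gene-count files. Those fits therefore repeat the within-file differences above and are not separate support for them.

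**Figure D2:**
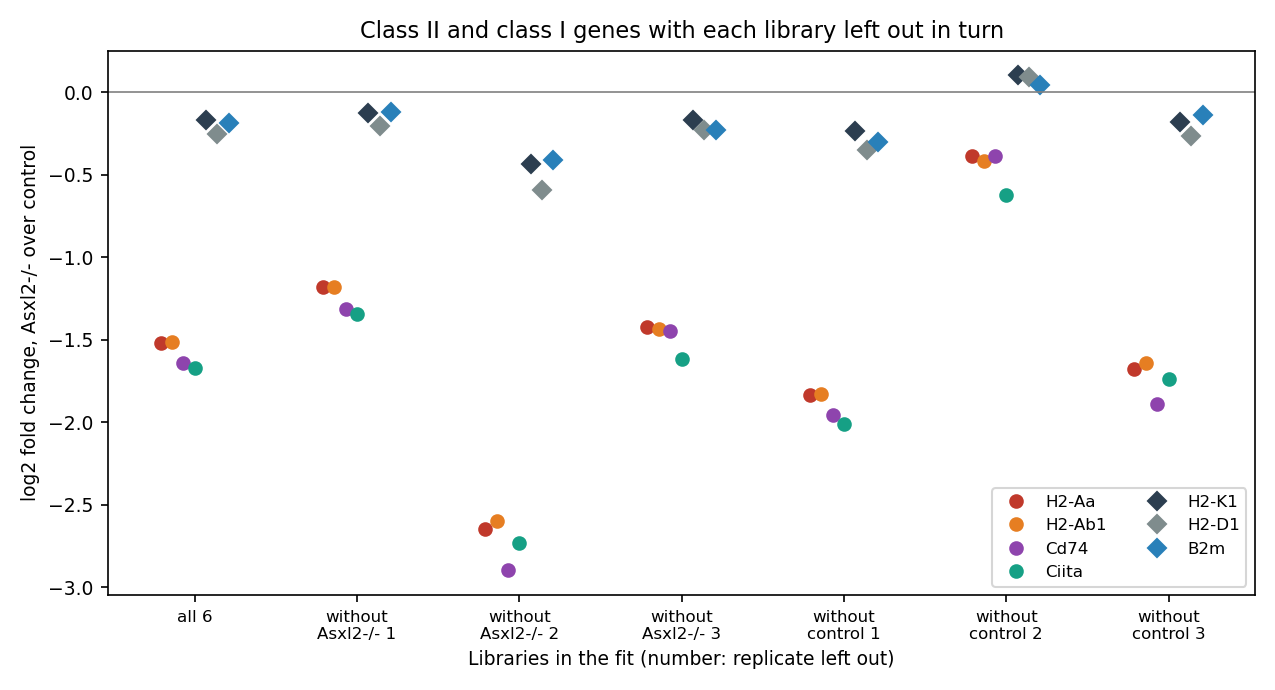
Log2 fold change, Asxl2-/- over control, of 4 class II genes (circles) and 3 class I genes (diamonds) with all 6 libraries and with each library left out in turn, named on the horizontal axis by group and replicate number. The class II genes range from -2.90 without Asxl2-/- replicate 2 to -0.38 without control replicate 2, where H2-K1, H2-D1 and B2m lie above 0. Without control replicate 2 the groups are compared only within the exon-count files, and without Asxl2-/- replicate 2 only within the gene-count files.

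The class I genes spanned a much narrower range. H2-K1, a classical heavy chain (chr17:33996012-34000333, 8 exons), lay at 1521, 1949 and 1579 CPM in the Asxl2-/- libraries and at 1735, 2093 and 1908 CPM in the controls. Asxl2-/- replicate 2 was above control replicates 1 and 3, so the groups overlapped. The log2 fold change of H2-K1 was -0.17 ± 0.136, with an interval of -0.50 to 0.16 and an edgeR adjusted p of 0.449.

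H2-D1, the other classical heavy chain of this strain (chr17:35263094-35267497, 8 exons), lay at 1040, 1370 and 1044 CPM in the Asxl2-/- libraries and at 1196, 1568 and 1382 CPM in the controls, again with overlap. Its log2 fold change was -0.25 ± 0.162, with an interval of -0.64 to 0.14 and an edgeR adjusted p of 0.348. The gene model of H2-D1 shares 1060 of its 1736 exon bases (61.1%) with H2-L, and class I heavy chains are near-identical paralogs, so how reads were divided among them is uncertain. The H2-L model (chr17:35263123-35266730) lies within that of H2-D1 and had a log2 fold change of -0.28, which is not independent of the H2-D1 value.

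B2m, the common light chain of all class I molecules (chr2:122147687-122153082, 4 exons), lay at 1877, 2397 and 2183 CPM in the Asxl2-/- libraries and at 2023, 2702 and 2649 CPM in the controls. Control replicate 1 was below Asxl2-/- replicates 2 and 3. The log2 fold change of B2m was -0.19 ± 0.160, with an interval of -0.58 to 0.20 and an edgeR adjusted p of 0.475. Without control replicate 2 the log2 fold changes turned to 0.10 for H2-K1, 0.09 for H2-D1 and 0.04 for B2m, so no direction can be given for these 3 genes. That fit compares the groups within the exon-count files alone.

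The genes of both peptide transporter subunits lie in the class II region, with Psmb8, an immunoproteasome subunit, between them. Tap1 (chr17:34187556-34197225) lay at 293, 379 and 368 CPM in the Asxl2-/- libraries and at 345, 538 and 452 CPM in the controls, and control replicate 1 was below Asxl2-/- replicates 2 and 3. Its log2 fold change was -0.39 ± 0.190 with an edgeR adjusted p of 0.239. Tap2 (chr17:34204479-34216321) lay at 223, 239 and 224 CPM against 248, 286 and 288 CPM, with no overlap and the tightest Asxl2-/- group of the 10 genes. Its log2 fold change was -0.26 ± 0.0985, with an interval of -0.50 to -0.02 and an edgeR adjusted p of 0.159.

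Nlrc5, the class I transactivator (chr8:94472763-94527272, 49 exons), lay at 162, 240 and 243 CPM in the Asxl2-/- libraries and at 251, 296 and 330 CPM in the controls. The groups did not overlap, although Asxl2-/- replicates 2 and 3 were close to control replicate 1. The log2 fold change of Nlrc5 was -0.41 ± 0.193, with an interval of -0.88 to 0.06 and an edgeR adjusted p of 0.222. Without control replicate 2 the log2 fold change was -0.27 for Nlrc5, -0.16 for Tap2 and -0.06 for Tap1, with edgeR adjusted p of 0.665, 0.610 and 0.908.

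**Figure D3:**
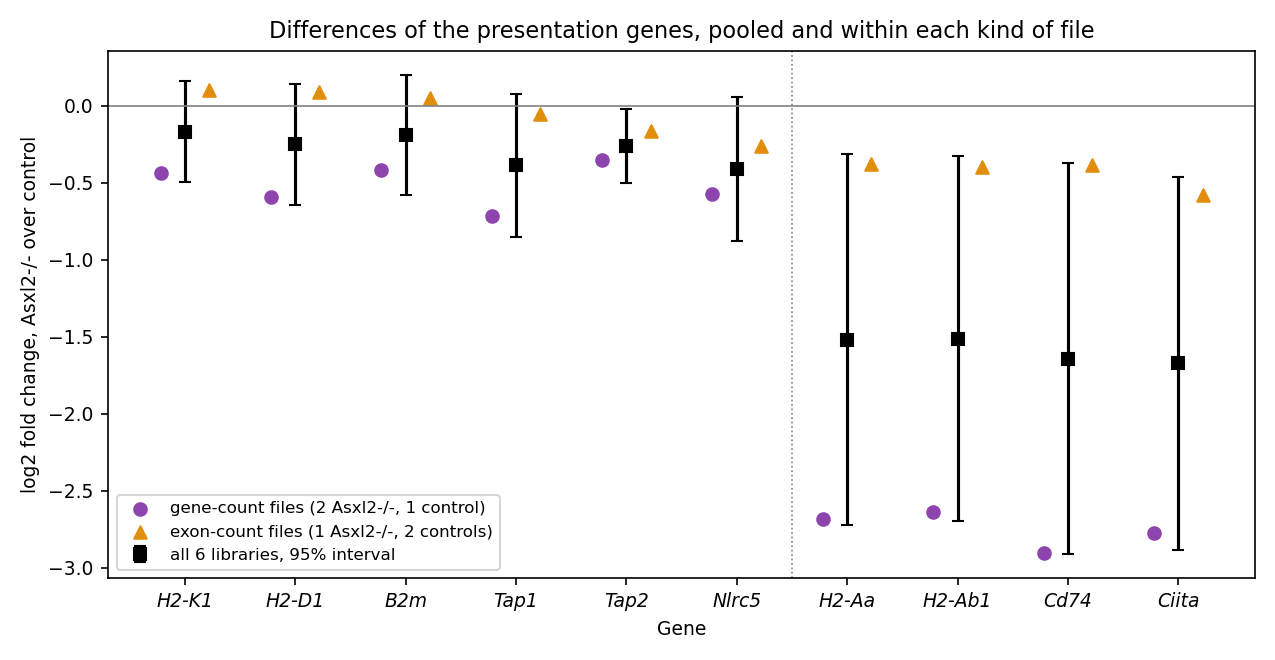
Log2 fold change, Asxl2-/- over control, of the 10 presentation genes, with squares and 95% intervals for all 6 libraries, circles for the gene-count files alone and triangles for the exon-count files alone. The class II intervals lie below 0 and run from about -2.91 to -0.31, with the gene-count files at their lower end and the exon-count files at their upper end.

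The difference between the kinds of file was itself tested, with a term for genotype within each kind. Control replicate 2 is alone in its arm among the gene-count files and Asxl2-/- replicate 2 among the exon-count files, so the spread, with 2 residual degrees of freedom, came from the other 4 libraries and these lone libraries were assumed to vary like them. It was 2.51 on the log2 scale for Cd74 (edgeR adjusted p = 0.0499), 2.25 for H2-Aa (0.143), 2.18 for H2-Ab1 (0.153) and 2.10 for Ciita (0.211), the exon-count difference being the smaller in size for each. Among class I genes it was 0.68 for H2-D1, 0.63 for Tap1, 0.53 for H2-K1, 0.45 for B2m, 0.27 for Nlrc5 and 0.19 for Tap2, with edgeR adjusted p of 0.312 to 0.868. Cd74 was the only one of the 10 below 0.05 in this test, and by a narrow margin, and 14 of all genes were called.

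Levels per kilobase of transcript (CPM divided by length) placed the presentation genes over a wide range. In the controls B2m was highest at 2865 ± 440 CPM per kilobase (SD, n = 3), followed by H2-K1 at 1162 ± 109, Cd74 at 820 ± 409, H2-D1 at 796 ± 107, H2-Aa at 584 ± 360, H2-Ab1 at 539 ± 299, Tap1 at 151 ± 32.8, Tap2 at 110.0 ± 9.07, Nlrc5 at 42.1 ± 5.69 and Ciita at 14.9 ± 9.74. The ranges of mean ± SD overlapped for the neighbours H2-K1 and Cd74, Cd74 and H2-D1, H2-D1 and H2-Aa, H2-Aa and H2-Ab1, and Tap1 and Tap2. These ranges hold the spread between mice and do not test a pair within libraries. Per kilobase Tap1 was above Tap2 in every library, while the order of each other pair changed between libraries. In the Asxl2-/- libraries H2-D1 (663 ± 109) stood before Cd74 (264 ± 159), and the order was otherwise the same. B2m was at the 99.96th percentile of all genes tested in level per kilobase, the class II chains H2-Aa and H2-Ab1 at the 98.9th and 98.8th, and Ciita at the 50.02th.

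The balance between the classes varied with the library. H2-K1 counts were 11.6, 6.32 and 7.59 times those of H2-Aa in Asxl2-/- replicates 1, 2 and 3 and 5.08, 1.97 and 4.07 times in control replicates 1, 2 and 3, so all Asxl2-/- libraries were above all controls in this ratio. Within class I the ratio of H2-K1 to H2-D1 was 1.34 to 1.51 in the 6 libraries.

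Genes whose pattern over the libraries was most like H2-Aa and H2-K1 were sought by Pearson r over 6 libraries in log2 CPM with the kind-of-file effect removed, across 14144 genes. For H2-Aa the closest were H2-Eb1, the class II beta chain of I-E (r = 0.9998), H2-Ab1 (0.9996) and Pik3cb (0.999), with Ciita at rank 10 and Cd74 at rank 13. For H2-K1 they were Gm5431 (0.999), the phospholipase gene Pla2g16 (0.998) and Fgl2 (0.997), with H2-D1 at rank 6. Gm5431 was at 0.192 to 1.28 CPM, so its pattern rests on few reads. These values share 6 libraries, the group difference and the weight of control replicate 2, and are given as a description.

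The wider pathway was described with 4 lists that hold 95 distinct genes, of which 85 are not among the 10. Of these 85, 76 were tested, none was called in either direction, 15 were lower and 4 higher at an unadjusted p below 0.05, beside 12.6% and 15% of all genes, and 54 had a log2 fold change below 0, with a median of -0.23 beside 0.00 over all genes. In 8 of the 76 every Asxl2-/- library was below every control, beside the 9.37% of all genes that did so, which is near the background.

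The class II list (chains, chaperones and processing) had the lowest median, -0.76 over 18 genes tested of 20. Of these, 9 were lower and none higher at an unadjusted p below 0.05, beside 12.6% and 15% of all genes. Ifi30, the lysosomal thiol reductase that unfolds antigens, had the smallest p, with 34.5, 50.1 and 29.6 CPM in the Asxl2-/- libraries against 53.0, 89.4 and 73.1 CPM in the controls and a log2 fold change of -0.90 ± 0.268 (edgeR adjusted p = 0.107), followed by Cd74. H2-Eb1, the closest companion of H2-Aa above, lay at 93.6, 262 and 154 CPM against 296, 854 and 429 CPM, with a log2 fold change of -1.63 ± 0.518 (edgeR adjusted p = 0.120). H2-Ea-ps, the pseudogene that stands in for the I-E alpha chain in this strain, held 0, 0 and 1 reads in the Asxl2-/- libraries and 0, 0 and 2 in the controls, so it was not detectable above the floor of 3 reads at this depth.

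In the peptide supply list, 16 genes of 16 were tested and the median was -0.37. Of these, 7 were lower and none higher at an unadjusted p below 0.05, beside 12.6% and 15% of all genes. Psmb10, a catalytic subunit of the immunoproteasome, lay at 107, 197 and 125 CPM in the Asxl2-/- libraries and at 192, 254 and 320 CPM in the controls, where Asxl2-/- replicate 2 overlapped control replicate 1 (log2 fold change -0.75 ± 0.246, edgeR adjusted p = 0.125). Psme2, a subunit of the PA28 proteasome activator, lay at 133, 325 and 157 CPM against 323, 275 and 446 CPM, with overlap (log2 fold change -0.58 ± 0.197, edgeR adjusted p = 0.132). Both genes were lower in each kind of file taken alone.

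In the class I heavy chain list, 24 genes of 31 were tested, with a median of -0.25. H2-Q7 and H2-Q9, H2-Q6 and H2-Q8, and H2-T9 and H2-T22 had nearly the same coordinates and counts, so they are not separate entries. At an unadjusted p below 0.05 none was lower and 1 higher, beside 12.6% and 15% of all genes. That gene, Mr1, which presents microbial vitamin B metabolites, lay at 11.6, 9.28 and 13.1 CPM in the Asxl2-/- libraries and at 8.13, 6.39 and 7.25 CPM in the controls, without overlap (log2 fold change 0.60 ± 0.205, edgeR adjusted p = 0.133). Cd1d1, which presents lipids, had a log2 fold change of 0.37 ± 0.156 (edgeR adjusted p = 0.188), also with every Asxl2-/- library above every control. In 3 of the 24 genes the groups were apart in this way, beside 15.4% of all genes, which is near the background.

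In the transcription list, 28 genes of 28 were tested, 4 were lower and 3 higher at an unadjusted p below 0.05, which is near the 12.6% and 15% of all genes, and the median was -0.05. Irf4, an interferon regulatory factor of B cells and dendritic cells, had the smallest p and lay at 12.5, 5.24 and 10.6 CPM in the Asxl2-/- libraries against 4.12, 2.88 and 2.43 CPM in the controls (log2 fold change 1.32 ± 0.392, edgeR adjusted p = 0.107). Ciita came next. The regulatory factor X subunits Rfx5, Rfxank and Rfxap, which sit on the class I and II promoters, did not share a direction. Rfx5 lay at 47.4 to 62.1 CPM in the Asxl2-/- libraries and at 42.3 to 50.5 CPM in the controls (log2 fold change 0.22, edgeR adjusted p = 0.149). The log2 fold change was -0.24 for Rfxank (edgeR adjusted p = 0.147) and 0.003 for Rfxap (edgeR adjusted p = 0.991). These subunits are named after their values were seen.

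**Figure D4:**
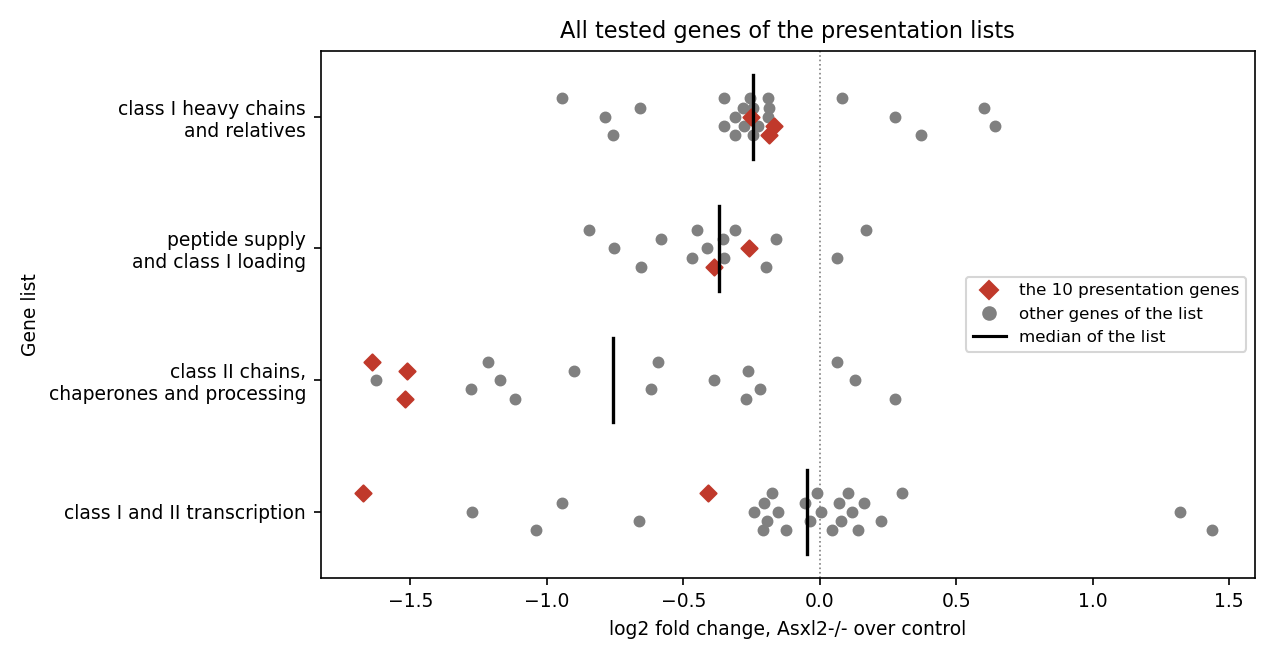
Log2 fold change, Asxl2-/- over control, of every tested gene in 4 presentation lists, with the 10 presentation genes as red diamonds, the other genes as grey circles and the list median as a black bar. The class II list is centred at -0.76 and reaches -1.64, while the transcription list is centred at -0.05 with Ciita at its lower end.

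Because class II genes mark antigen-presenting cells, markers of other cell types were summed in each library. In bulk samples fewer cells of a type and less RNA per cell cannot be told apart. The 14 dendritic cell markers summed to 145 to 204 CPM in the Asxl2-/- libraries and to 171 to 371 CPM in the controls, highest in control replicate 2, as were the class II genes. Flt3, which is also in the LSK list below, was the largest single part of this sum in every library. It lay at 141, 80.6 and 78.9 CPM in Asxl2-/- replicates 1, 2 and 3 and at 162, 112 and 90.1 CPM in the controls. The overlap of the sums therefore does not describe the other markers. Of the 13 dendritic markers tested none was called. At an unadjusted p below 0.05, 7 were lower and none higher, beside 12.6% and 15% of all genes, and 5 were lower without overlap, beside 9.37% of all genes. Their median log2 fold change was -0.90, and none was at 0 in all libraries. Xcr1, a chemokine receptor of cross-presenting dendritic cells, was at 12.1, 18.7 and 17.8 CPM in the Asxl2-/- libraries and at 21.2, 88.4 and 19.1 CPM in the controls. Batf3, a transcription factor these cells need, was at 0.461, 1.41 and 0.599 CPM against 2.11, 8.19 and 2.36 CPM. Xcr1 and Batf3 are named after their values were seen. Siglech, Clec10a and Cd300c, markers of other dendritic subsets and of myeloid cells, had log2 fold changes of 0.35, 0.31 and 0.79 and did not pass the threshold. Over the 13 dendritic markers r with H2-Aa, computed as above, ran from -0.55 for Cd300c to 0.99 for Batf3. The part of dendritic cells in the class II differences was not tested.

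B-lymphoid markers moved the other way. They summed to 182 to 200 CPM in the Asxl2-/- libraries and to 50.4 to 72.1 CPM in the controls, with 7 of 14 called higher, beside 2.04% of all genes, and a median log2 fold change of 1.68, although B cells also carry class II molecules. Monocyte and macrophage markers summed to 309 to 497 CPM in the Asxl2-/- libraries and to 258, 1591 and 369 CPM in control replicates 1, 2 and 3. The 12 genes listed for the LSK gate or its stem cells summed to 1719 to 2263 CPM in the Asxl2-/- libraries and to 1566 to 1795 CPM in the controls. They were thus expressed in all libraries, but a sum in bulk RNA does not show what share of the cells was LSK. Of these 12 genes 4 were higher and none lower at an unadjusted p below 0.05, beside 15% and 12.6% of all genes. Slamf1, a marker of stem cells, was called higher (log2 fold change 1.52, edgeR adjusted p = 0.0196), and the median log2 fold change of the list was 0.36. Ly6a, which encodes the Sca-1 antigen of the gate and had the lowest fold change of that list (log2 fold change -1.34, edgeR adjusted p = 0.187, named after its values were seen), was at 52.6, 69.1 and 57.6 CPM in the Asxl2-/- libraries and at 40.5, 260 and 148 CPM in the controls.

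Interferon-response genes were summed because interferon raises both classes. The 23 genes summed to 1030 to 1860 CPM in the Asxl2-/- libraries and to 1407, 4339 and 3427 CPM in control replicates 1, 2 and 3. None was called, and the median log2 fold change was -0.66. Of the 23 genes 7 were lower and 1 higher at an unadjusted p below 0.05, beside 12.6% and 15% of all genes. Control replicate 1, which had the lowest interferon-response sum of the controls, also had the lowest level of the controls in each of the 10 presentation genes, and the part of interferon signalling was not tested. T and NK cell markers summed to 144 to 210 CPM and 146 to 180 CPM, neutrophil markers to 2459 to 6607 CPM and 2525 to 7793 CPM, endothelial markers to 178 to 230 CPM and 150 to 203 CPM, and erythroid markers to 679 to 1255 CPM and 1869 to 2881 CPM, each given for Asxl2-/- and then control. Although the neutrophil sums overlapped, 2 of the 12 neutrophil genes were called higher, Ltf and Ngp (log2 fold changes 3.52 and 3.62), beside 2.04% of all genes. Of the 12, 7 were higher and none lower at an unadjusted p below 0.05, beside 15% and 12.6% of all genes. The median log2 fold change of the neutrophil list was 1.66. The median log2 fold change was 0.22 for the T and NK list, 0.79 for the endothelial list and -0.87 for the erythroid list. Of the 12 T and NK genes tested 1, Thy1, was called higher (log2 fold change 1.84, edgeR adjusted p = 0.0279), beside 2.04% of all genes. At an unadjusted p below 0.05, 4 of 8 endothelial genes were higher and none lower, and 6 of 11 erythroid genes were lower and none higher. The T and NK list had 1 higher and 1 lower at that level, beside 15% and 12.6% of all genes.

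The 3 exon-count libraries showed how evenly reads lay along the presentation genes, in a comparison of 1 Asxl2-/- library with 2 control libraries and thus of libraries rather than conditions. Exons with at least 20 reads in each library were compared in CPM with the mean of the controls. Asxl2-/- replicate 2 was below both controls in 5 of 5 exons of H2-Aa, 6 of 6 of H2-Ab1, 9 of 9 of Cd74 and 16 of 19 of Ciita, with median log2 ratios of -0.40, -0.43, -0.39 and -0.65. It was below both in 32 of 49 exons of Nlrc5, 8 of 12 of Tap2, 1 of 8 of H2-K1 and in no exon of H2-D1, B2m or Tap1. The exons of H2-Aa spanned only -0.41 to -0.38, so the difference for this gene ran along the whole transcript.

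Ciita is transcribed from several promoters, each with a first exon of its own, known in order along the gene for use in dendritic cells and macrophages, in B cells, and after interferon gamma. Of the reads in these 3 first exons, the first took 36 of 59 in Asxl2-/- replicate 2, or 61.0% with a Wilson 95% interval of 48.3 to 72.4. Control replicate 1 had 55 of 77 there (71.4%, interval 60.5 to 80.3), and control replicate 3 had 53 of 97 (54.6%, interval 44.7 to 64.2). In the same order of libraries, the second first exon took 18.6%, 11.7% and 14.4%, and the third took 20.3%, 16.9% and 30.9%. These exons are 355, 247 and 84 bases long, so the shares compare libraries and do not rank the promoters. Per base the third held more than the first in Asxl2-/- replicate 2 and control replicate 3, and about as many in control replicate 1. The intervals of the Asxl2-/- library overlapped those of both controls, and no difference in first-exon use was detectable at this depth. The 192-base exon 7 of Cd74, which only the longer isoform of the invariant chain includes, took 2.25% of the exon reads of Cd74 in Asxl2-/- replicate 2 (interval 2.10 to 2.42). The share was 2.53% (interval 2.38 to 2.68) and 2.13% (interval 1.999 to 2.27) in the 2 controls, so the Asxl2-/- library lay between the controls. These intervals cover counting error only.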

How the data were processed

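RNA of sorted LSK cells was sequenced as poly(A)-selected, unstranded libraries. The deposited values are raw counts per RefSeq transcript or per exon (mm10) and were made by the authors, and the submitters' processing notes name STAR, featureCounts and DESeq2 without roles or versions. Exon counts were summed per transcript, which counts a read on 2 exons more than once, and the longest transcript stood for each symbol. Counts were scaled by TMM, filtered with filterByExpr and tested two-sided in edgeR 4.0.16 (R 4.3.3) with kind of file as covariate, which left 3 residual degrees of freedom. CPM values use the scaled sizes of libraries that held 25528540 to 55032075 counts. limma 3.58.1 (voom) and DESeq2 1.42.0 were alternatives, beside other scalings, filters and transcripts, the replicate block and leaving out each library. The fit was tested on simulated counts. Every pair of libraries differed by more than sampling noise. The study's Cuffdiff test needs reads and was not used. The 10 genes, the lists, and the rule for named genes (all 10, per presentation list the called genes or the 2 with the smallest p, and the 3 genes most like H2-Aa and H2-K1) were chosen with earlier results of these data known. Protein sequences were not used here.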

Additional observations from a re-analysis of the deposited data

Results flagged for a closer look

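One result met the criteria for a closer look, because the difference between groups itself differed between the 2 kinds of count file. The log2 fold change of Cd74, Asxl2-/- over control, was smaller in size in the exon-count files than in the gene-count files by 2.51 (edgeR adjusted p = 0.0499), being -0.39 in the former and -2.91 in the latter. Cd74 lay at 216 and 274 CPM in Asxl2-/- replicates 1 and 3 and at 1825 CPM in control replicate 2, all gene-count files, and at 632 CPM in Asxl2-/- replicate 2 and 770 and 887 CPM in control replicates 1 and 3, all exon-count files. The kind of file and the individual mouse cannot be told apart, since the gene-count files hold 1 control and the exon-count files hold 1 Asxl2-/- library. H2-Aa, H2-Ab1 and Ciita had differences of 2.25, 2.18 and 2.10 in the same direction and did not pass the threshold.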

How the results depend on the processing

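None of the 10 presentation genes was called with limma-voom, DESeq2, other scalings and filters, other transcripts, or the genes outside X and Y, and the class II log2 fold changes ranged from -1.81 to -1.41 over all fits of 6 libraries. The count of all genes called was 331, and it was 2329 with DESeq2, 161 with library size alone as scaling, 9 to 1312 with each library left out (9 without control replicate 3, 1312 without control replicate 1), and 532 without Asxl2-/- replicate 1 and control replicate 2. Of the 76 other presentation genes, 11 were called with DESeq2 and 0 to 13 with each library left out (13 without Asxl2-/- replicate 2, 6 without control replicate 1). Of the 10 genes, 0 to 4 were called with each library left out, the 4 being the class II genes without Asxl2-/- replicate 2. No source says that replicate numbers pair the samples. The deviations of same-numbered libraries from their group means correlated at 0.29, -0.01 and 0.00 for numbers 1, 2 and 3. With kind of file removed they correlated at 0.64, 1 and 0.39, and every library then correlated best with its own number, but the design with kind of file fixes the value of 1 and links the others. The replicate block was therefore kept as an alternative, and it gave with kind of file 8 of the 10 genes, 38 of the 76 and 5184 of all genes, with 1 residual degree of freedom, and without kind of file 4, 2 and 377. With each library left out the log2 fold changes ranged from -0.43 to 0.10 for H2-K1, -0.59 to 0.0924 for H2-D1 and -0.41 to 0.0428 for B2m, each turning above 0 only without control replicate 2, and also, in a fit chosen after seeing the data, without that library and Asxl2-/- replicate 1 (0.101, 0.0919 and 0.0424). Both of these fits compare the groups within the exon-count files alone, so the latter repeats the former. The causes were not tested. The lowest count of the 10 genes in any library was 435, for Ciita.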
